A study of Mus musculus with 14 samples.

Results

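The genes described here carry the response of microglia to extracellular nucleotides: the nucleotide receptors P2ry12, P2ry13, P2ry6, P2ry14, P2rx4 and P2rx7, the adenosine receptors Adora3 and Adora2a, and the surface enzymes Entpd1 and Nt5e. They were chosen by symbol, and all 10 were found among the 24394 named genes of the deposited table. Of these, 7 had a mean of at least 10 normalized counts and were among the 11646 genes tested, while P2ry14, Nt5e and Adora2a lay under that filter. RNA sequencing was done on microglia, the macrophages that reside in the brain. The mice were C57BL/6 and 18 months old. An osmotic pump had delivered either a CD22-blocking antibody (anti-CD22) or a control IgG into the cerebrospinal fluid for 1 month. CD22 is an inhibitory receptor that binds sialic acid. Both groups therefore carried a pump and a cannula and were of the same strain and age, and neither was young or without infusion. Each group had 7 libraries, each from about 20000 living CD11b+ CD45lo cells of the hemisphere away from the cannula. The labels do not say whether the libraries came from separate animals, so p-values measure the spread between these libraries.

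Purinergic signalling starts when cells release or spill ATP and related nucleotides. P2Y receptors are G protein-coupled and P2X receptors are ion channels opened by ATP, and microglia use them to sense injury, to direct their processes and to set off inflammatory responses. Entpd1 (CD39) trims ATP and ADP to AMP and Nt5e (CD73) turns AMP into adenosine, so the enzymes end one signal and feed the adenosine receptors.

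Recovered reads ranged from 20221836 to 38101421 over the 13 libraries where they could be recovered, 7 IgG and 6 anti-CD22. All 10 microglia markers fixed for this work were measured, and their summed level ranged from 1581548 to 1875457 normalized counts with IgG and from 1668405 to 1795512 with anti-CD22. The 5 neutrophil markers summed to between 2.23 and 53133 with IgG and between 0 and 10129 with anti-CD22. The 6 lymphocyte markers reached no more than 30.8, and Cd3e, Cd3g and Ms4a1 were at 0 in all 14 libraries. Border macrophage markers summed to 76.1 to 1336 with IgG and 232 to 2097 with anti-CD22. In the same order, monocyte markers were at 137 to 9181 and 88.2 to 2313. Oligodendrocyte lineage markers were at 1614 to 2185 and 1420 to 2049. Astrocyte markers were at 46.8 to 251 and 35.3 to 199, and endothelial and mural markers at 656 to 1201 and 858 to 1243. In 3 anti-CD22 libraries, replicates 1 to 3, the level relative to the other libraries was higher for longer transcripts (Spearman's rho across genes between 0.287 and 0.328, against -0.260 to -0.0032 over the IgG libraries) and lower for transcripts rich in GC (-0.401 to -0.309). Anti-CD22 replicates 4 to 7 had a rho with length of 0.136, 0.125, -0.0479 and -0.270. Their rho with GC was 0.0854, 0.255, 0.161 and -0.0234. Genes are not independent replicates. Member differences are therefore also given after a trend in length and GC content was removed from each library, as are those of other genes where this moved the value by over 1.5 times.

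P2ry12 and P2ry13, the most abundant of these receptors, are neighbours on the minus strand of chromosome 3 and their levels varied together across libraries, so their promoters are shown. Each window runs from 250 bases before to 50 bases after the start in RefSeq (GRCm38.p6), 5′ to 3′ on the minus strand. P2ry12 is at chr3:59262936-59263235 and P2ry13 at chr3:59210833-59211132. In GENCODE, used for the gene coordinates below, P2ry12 starts at 59262871, outside its window, and P2ry13 at 59210882, inside its window. Capitals mark GAGGAA, a form of the site bound by PU.1, a transcription factor of myeloid cells. Other forms of that site were not searched.
P2ry12: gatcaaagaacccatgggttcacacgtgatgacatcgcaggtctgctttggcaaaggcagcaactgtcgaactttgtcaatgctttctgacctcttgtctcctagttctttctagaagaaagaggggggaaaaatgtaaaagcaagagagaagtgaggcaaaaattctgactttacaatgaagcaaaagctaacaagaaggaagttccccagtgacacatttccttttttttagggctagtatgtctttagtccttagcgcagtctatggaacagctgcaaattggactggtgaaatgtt
P2ry13: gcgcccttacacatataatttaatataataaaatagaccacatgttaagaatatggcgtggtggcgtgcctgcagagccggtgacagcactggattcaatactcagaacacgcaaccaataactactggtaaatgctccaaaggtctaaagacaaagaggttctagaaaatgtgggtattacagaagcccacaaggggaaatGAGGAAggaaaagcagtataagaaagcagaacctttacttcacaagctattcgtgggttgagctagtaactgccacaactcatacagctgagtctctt
GAGGAA, searched on both strands, occurred 1 time in the P2ry13 window and did not occur in that of P2ry12. It occurred in 28.3% of all 32851 promoter windows of the same length. TGANTCA, the AP-1 motif, occurred in neither window and in 7.81% of all windows. These matches describe letters in the windows only.

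None of the 7 members tested passed an adjusted p of 0.05 between anti-CD22 and IgG in limma, where 1 of 11646 genes did (0.00859%). At an unadjusted p under 0.05 there were 2 of 7 members, P2ry6 with a lower mean and P2ry13 with a higher mean in the anti-CD22 group, against 12.8% of all genes tested. No member had groups of libraries that did not overlap, as 0.258% of all genes tested had. The exact permutation test over samples, edgeR and DESeq2 also called 0 members, and 0, 0 and 32 of all genes. With 3432 assignments of libraries, a gene can pass adjustment in the permutation test only if many genes share the lowest possible p. Its count of 0 is therefore little evidence either way. At an unadjusted p under 0.05 the exact permutation test had 2 of 7 members against 11.7% of all genes, edgeR 2 of 7 against 8.82% and DESeq2 1 of 7 against 10%. The members' SE of a log2 fold change lay between 0.0526 and 0.0721, against a median of 0.135 over all genes tested. At that precision the 95% intervals of the 7 members spanned folds from 0.792 to 1.18. The median log2 fold change was 0.09 over the 7 members and 0.00 over all genes tested. It was 0.02 over the members with the length and GC trend removed (-0.01 over all genes), 0.04 without anti-CD22 replicates 1 to 3 and 0.05 without IgG replicate 1.

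**Figure D1:**
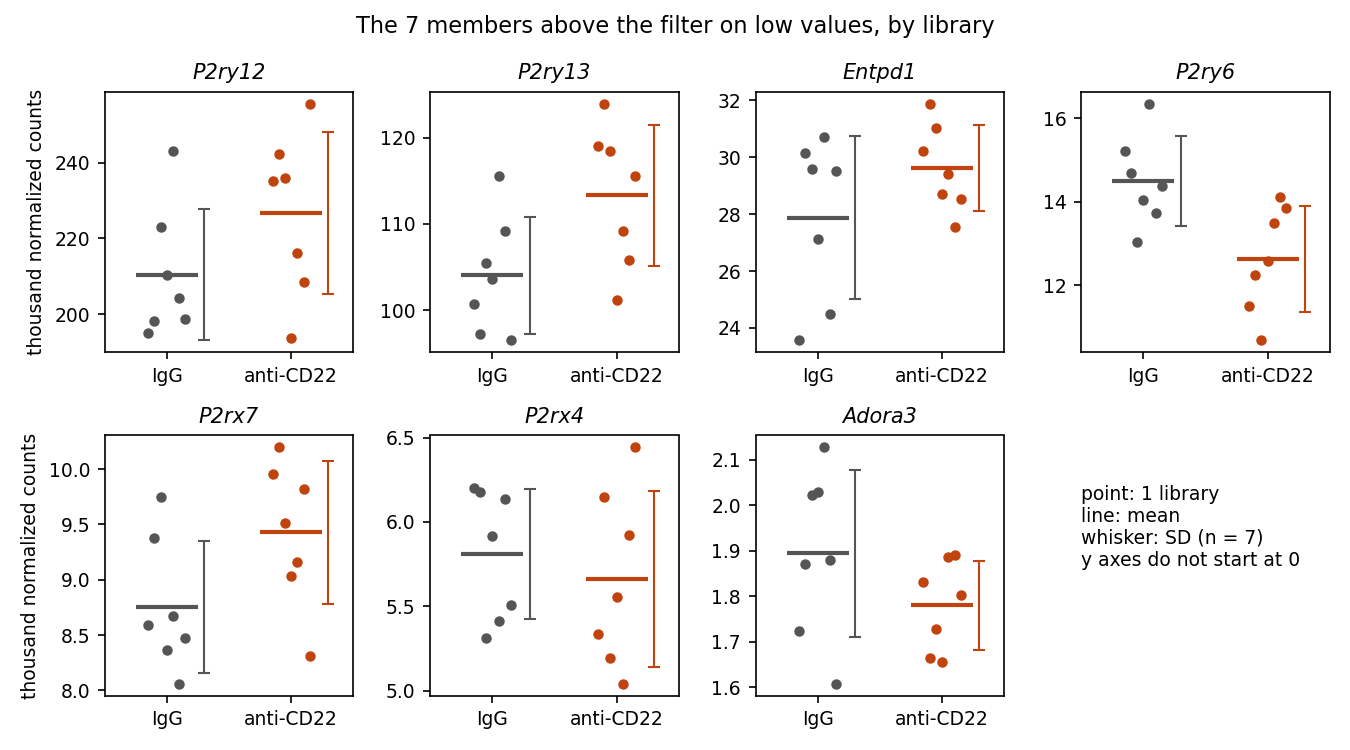
Normalized counts of the 7 members above the filter on low values (y axes do not start at 0), with IgG in grey and anti-CD22 in orange. Each point is 1 library, the line is the mean and the whisker the SD of 7 libraries, and in each panel the groups overlap.

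P2ry12, the ADP receptor that steers microglial processes towards injury and a marker of resting microglia, had a lowest, median and highest level of 195084, 204265 and 243086 normalized counts with IgG. The corresponding levels with anti-CD22 were 193755, 235030 and 255484. With anti-CD22, 6 of 7 libraries were higher than the median of the IgG group, but only replicate 7 lay above the highest IgG library and replicate 4 lay below the lowest. The means were 210366 ± 17277 and 226736 ± 21389 (SD, n = 7 each). The log2 fold change, here and below on the scale of log2(normalized count + 1), was 0.11 (95% interval -0.02 to 0.24; limma adjusted p = 0.475). Removal of the trend brought it to 0.03. By normalized count, not per length, P2ry12 ranked 12 among all genes. It took a median of 0.726% of all normalized counts with IgG (range 0.7115% to 0.8326%) and 0.852% with anti-CD22 (0.6975% to 0.9033%). On GRCm38 the gene spans chr3:59216272-59262871 on the minus strand, inside Med12l, which lies on the opposite strand and overlaps it in exons. The library kits do not mark strand, so reads of P2ry12 and Med12l cannot be told apart where their exons overlap. Med12l had 814 ± 188 normalized counts with IgG and 992 ± 129 with anti-CD22 (SD, n = 7 each), far below the count of P2ry12 in both groups. Its log2 fold change was 0.30 (limma adjusted p = 0.356), and 0.11 with the trend removed.

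P2ry13, another ADP receptor that also couples to inhibitory G proteins, is encoded at chr3:59207892-59210882, 5.389 kb from P2ry12. Its lowest, median and highest levels were 96525, 103586 and 115609 normalized counts with IgG and 101158, 115550 and 123910 with anti-CD22. Replicates 1, 2 and 3 of the anti-CD22 group lay above every IgG library, and the other 4 fell within the IgG range. The means were 104060 ± 6776 and 113301 ± 8133 (SD, n = 7 each). This gave a log2 fold change of 0.12 (95% interval 0.01 to 0.23), with an adjusted p of 0.351 in limma. These 3 libraries are the ones with the steepest length trend. Without them the value was 0.05, while removal of the trend from each library left it at 0.11 (limma adjusted p = 0.496).

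P2ry6, the UDP receptor linked to microglial phagocytosis (chr7:100937630-100974649, minus strand), had the lowest p of the 7 members above the filter. Its lowest, median and highest levels were 13034, 14372 and 16347 normalized counts with IgG and 10681, 12589 and 14106 with anti-CD22. Each of the 7 anti-CD22 libraries was lower than the median of the IgG group, and replicates 1 to 4 lay below every IgG library. The means were 14492 ± 1074 and 12636 ± 1268 (SD, n = 7 each). On the log2 scale the difference was -0.20 (95% interval -0.34 to -0.06), a fold of 0.870, with an adjusted p of 0.244 in limma. The transcript is short (1.946 kb) and rich in GC (55.9%, against a median of 49.5% over genes tested). With the trend removed the log2 fold change was -0.11, and without anti-CD22 replicates 1 to 3 it was -0.10.

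P2rx4 and P2rx7 are ATP-gated cation channels encoded 16.111 kb apart on chromosome 5, and P2rx7 is the one that high ATP uses to start the inflammasome. P2rx4 had a lowest, median and highest level of 5315, 5919 and 6199 normalized counts with IgG and 5041, 5558 and 6442 with anti-CD22. Anti-CD22 replicates 3 and 5 lay below every IgG library, replicate 7 lay above, and the other 4 were within the IgG range, with means of 5810 ± 386 and 5663 ± 521 (SD, n = 7 each). Its log2 fold change was -0.04 (95% interval -0.17 to 0.09; limma adjusted p = 0.827), and -0.07 with the trend removed. P2rx7 had 8060, 8593 and 9749 normalized counts with IgG and 8312, 9516 and 10196 with anti-CD22, with means of 8756 ± 595 and 9427 ± 646 (SD, n = 7 each). Anti-CD22 replicates 1, 2 and 6 lay above every IgG library, and the remaining 4 did not. The log2 fold change of P2rx7 was 0.11 (95% interval -0.01 to 0.22; limma adjusted p = 0.437), and 0.04 with the trend removed.

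Adora3, the adenosine receptor that couples to inhibitory G proteins, was the one adenosine receptor of the members above the filter. It had a lowest, median and highest level of 1608, 1879 and 2127 normalized counts with IgG and 1657, 1804 and 1890 with anti-CD22, and every anti-CD22 library lay within the IgG range. Its log2 fold change was -0.09 (95% interval -0.24 to 0.07; limma adjusted p = 0.634), and -0.06 with the trend removed. Adora3 shares exons with Tmigd3 on the same strand, so reads may be split between them, and Tmigd3 was at 47.0 ± 25.7 normalized counts with IgG and 47.3 ± 9.23 with anti-CD22 (SD, n = 7 each). Adora2a, the receptor that raises cyclic AMP, was at 0 in all 14 libraries. Over the recovered reads, a count of 0 allows up to 0.0158 reads in every 1000000 with IgG and 0.0164 with anti-CD22 (3 reads over the group, counting error only).

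Entpd1 (chr19:40612366-40741602, plus strand) is the enzyme that opens the breakdown of ATP. Its lowest, median and highest levels were 23564, 29503 and 30706 normalized counts with IgG and 27551, 29420 and 31873 with anti-CD22. The medians were close, and the difference in means (27876 ± 2868 against 29615 ± 1511, SD, n = 7 each) came with 2 low IgG libraries, replicates 1 and 6, at 23564 and 24503. The difference on the log2 scale was 0.09 (95% interval -0.03 to 0.22; limma adjusted p = 0.528), 0.05 without IgG replicate 1 and 0.02 with the trend removed.

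**Figure D2:**
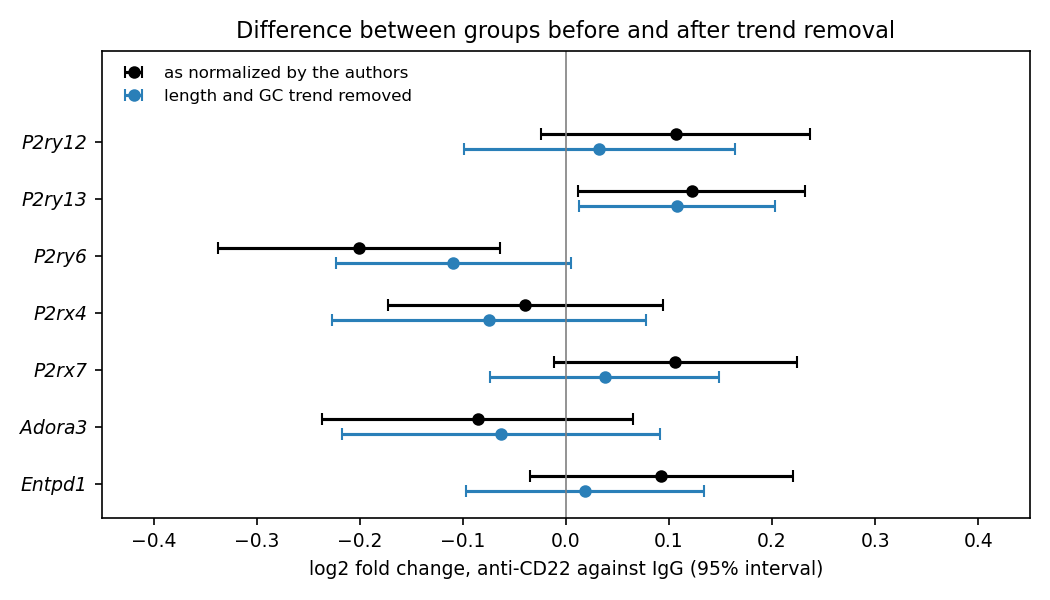
Log2 fold change of each tested member (anti-CD22 against IgG) with its 95% interval, from the deposited values (black) and after removal of the trend in transcript length and GC content (blue). The intervals of P2ry6 and P2ry13 leave out 0 in black, and that of P2ry13 alone does in blue, before adjustment over all genes.

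Nt5e, the AMP-cleaving enzyme (chr9:88327197-88372092, plus strand), was detected at a trace level and unevenly. With IgG, 5 of 7 libraries were above 0, at 10.9 (replicate 1), 6.55 (replicate 3), 14.5 (replicate 4), 25.2 (replicate 5) and 29.0 normalized counts (replicate 7). With anti-CD22, only replicate 2 was above 0, at 2.65. The groups overlap because IgG replicates 2 and 6 were also at 0. In recovered reads this was 78 reads in 7 IgG libraries (0.411 per 1000000 reads, exact Poisson 95% interval 0.325 to 0.513) against 3 reads in 6 anti-CD22 libraries (0.0164 per 1000000, 0.00339 to 0.0480). The ratio was 25 (8.26 to 124), an interval that covers counting error and not the spread between libraries. Being under the filter, Nt5e was not part of the main test, and with no filter limma gave a log2 fold change of -2.60 (95% interval -4.17 to -1.02; adjusted p = 0.288). In such bulk samples, fewer cells of a type and less RNA per cell cannot be told apart. Lymphocytes, which can carry CD73, had markers summing to between 0 and 16.3 normalized counts with IgG and between 4.44 and 30.8 with anti-CD22. Their part in the result was not tested.

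P2ry14, the receptor for UDP-glucose (chr3:59113855-59153618, minus strand), was above 0 in 3 of 7 IgG and 4 of 7 anti-CD22 libraries. IgG replicates 2, 5 and 6 had 37.8, 10.5 and 5.60 normalized counts, and anti-CD22 replicates 1, 3, 4 and 5 had 40.3, 18.2, 4.11 and 3.71. Single libraries carried most of the signal in each group, with 36 of 51 IgG reads in one and 44 of 52 anti-CD22 reads in another. Per 1000000 recovered reads the groups were at 0.269 with IgG (exact Poisson 95% interval 0.20 to 0.354) and 0.285 with anti-CD22 (0.213 to 0.374).

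**Figure D3:**
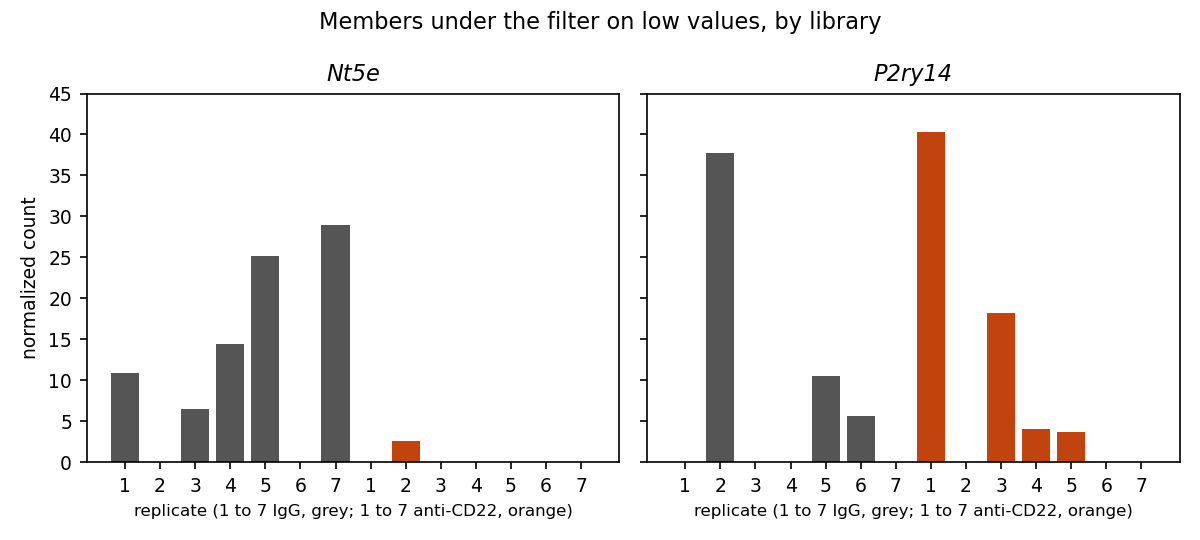
Normalized counts of Nt5e and P2ry14 in each of the 14 libraries, with IgG replicates 1 to 7 in grey and anti-CD22 replicates 1 to 7 in orange. Nt5e was above 0 in 5 IgG libraries and 1 anti-CD22 library, and P2ry14 in 3 and 4.

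Per kilobase of each gene's longest annotated transcript, the order was P2ry12, P2ry13, then P2ry6 and Entpd1, then P2rx7, P2rx4 and Adora3. This puts genes of different length on a rough common scale. P2ry12 stood at 89747 ± 7371 normalized counts per kb with IgG and P2ry13 at 41163, a ratio of 2.02 to 2.39 in the 14 libraries. P2ry13 exceeded P2ry6 by 5.09 to 8.53 times. P2ry6 and Entpd1 did not hold an order: their ratio ran from 0.747 to 1.40 and was above 1 in 6 of 7 IgG and 2 of 7 anti-CD22 libraries. Their means per kb were 7447 and 6604 with IgG and 6494 and 7016 with anti-CD22, and this difference between groups was not tested. Entpd1 exceeded P2rx7 by 3.21 to 4.14 times, and P2rx7 exceeded P2rx4 by 1.02 to 1.47 times, in each library. These ratios depend on the lengths used, such as 4.936 kb for P2rx7 and 3.895 kb for P2rx4. Which transcripts the cells made was not examined.

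The levels of P2ry12 and P2ry13 varied together across libraries. As deviations from the group means on the log2 scale, Pearson's r was 0.861 over 14 libraries (permutation p = 0.00034, adjusted over 3 pairs 0.00102) and Spearman's rho 0.842 (permutation p = 0.00073, adjusted 0.00219). Without the 2 libraries farthest from the median of P2ry12, IgG replicate 5 and anti-CD22 replicate 4, r was 0.749. It was 0.831 within IgG and 0.884 within anti-CD22, and 0.782 with the length and GC trend removed. P2rx4 and P2rx7, also neighbours, had an r of -0.267 (permutation p = 0.381, adjusted 0.381) and a rho of -0.213 (permutation p = 0.476, adjusted 0.476). With the trend removed the sign of r turned, to 0.234. P2ry12 and Entpd1 had an r of 0.455 (permutation p = 0.0902, adjusted 0.135) and a rho of 0.473 (permutation p = 0.0853, adjusted 0.128). Their r was 0.601 with the trend removed, 0.293 with quantile normalization and 0.351 without IgG replicate 5 and anti-CD22 replicate 4. The libraries of a pair share depth and normalization. Of 5 pairs planned, the 2 with P2ry14 were not computed because it lay under the filter. Outside the planned pairs, P2ry12 and Adora3 had an r of 0.456, and 0.752 with the trend removed. That pair was named after its value was seen and is given as a description.

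**Figure D4:**
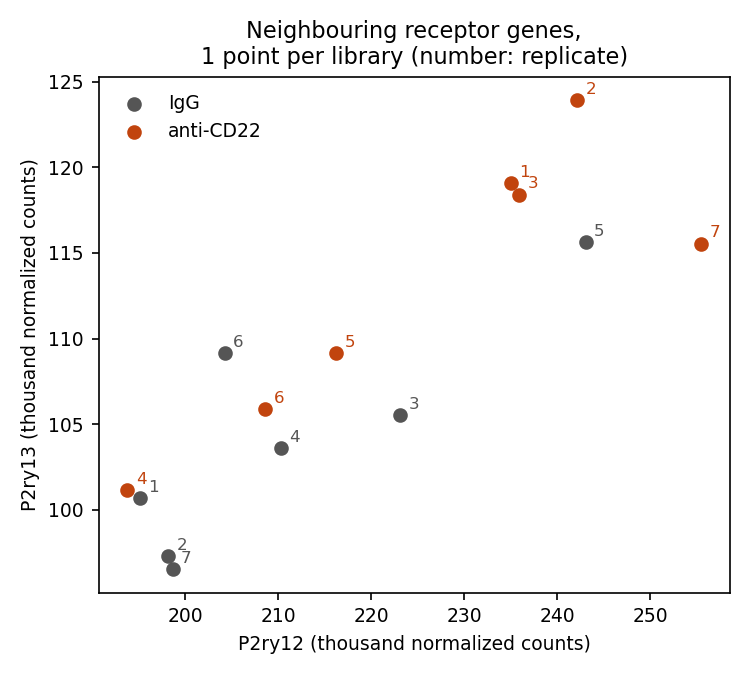
P2ry13 against P2ry12 in normalized counts, 1 point per library with its replicate number, IgG in grey and anti-CD22 in orange. Libraries with more P2ry12 had more P2ry13 in both groups (r = 0.861 as deviations from the group means).

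The genes whose levels followed the abundant members most closely are given as a description, with r over the 14 libraries. For P2ry12 they were Yipf4 (0.91), Pttg1ip (0.91) and Atp6ap1 (0.89). Removal of the length and GC trend left Yipf4 at 0.93 and brought Pttg1ip to 0.56 and Atp6ap1 to 0.37. For P2ry13 they were Dkc1 (0.91), Ptar1 (0.87) and Tmem154 (0.87), at 0.83, 0.68 and 0.89 with the trend removed. For Entpd1 they were Fem1c (0.90), Fxr1 (0.88) and Ppip5k2 (0.86), at 0.86, 0.68 and 0.76 with the trend removed.

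The rest of the purinergic system was covered by 8 lists with 85 measured genes, of which 65 were tested. None passed the threshold in limma, and 9 (13.8%) had an unadjusted p under 0.05, close to the 12.8% of all genes tested. Over these 65 genes 30 had a log2 fold change above 0 and 35 below 0, and the median difference on the log2 scale was -0.01. In the other receptors, P2rx2, P2ry1 and P2ry4 were at 0 in every library, and the 2 tested, P2rx1 and P2ry2, had means of 463 and 122 normalized counts with IgG and 408 and 109 with anti-CD22. Their log2 fold changes were -0.10 and -0.03, and -0.05 and 0.02 with the trend removed. Gpr34, a lysophosphatidylserine receptor of the P2Y12-like group, was at 91341 ± 4760 and 100841 ± 14470 normalized counts (SD, n = 7 each; limma adjusted p = 0.462). Its log2 fold change was 0.13, and 0.05 with the trend removed. Gpr183 had a log2 fold change of 0.03, and 0.01 with the trend removed.

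Adora1, an inhibitory adenosine receptor abundant in neurons, was the one other adenosine receptor tested. It had 128 ± 41.6 normalized counts with IgG and 71.8 ± 40.9 with anti-CD22 (SD, n = 7 each), and each anti-CD22 library was lower than the median of the IgG group. The difference was -0.95 on the log2 scale (95% interval -1.67 to -0.24; limma adjusted p = 0.289). The 5 neuron markers summed to between 0 and 92.4 normalized counts with IgG and between 21.3 and 112 with anti-CD22, and their part in this value was not tested. Of the 16 other ectoenzymes, 10 were tested, 7 had a log2 fold change above 0 and 3 below (5 and 5 with the trend removed), and Entpd3, Entpd8 and Enpp3 were at 0 throughout. Enpp2, the enzyme that makes lysophosphatidic acid, and Cd38, which cleaves NAD, had the largest values of this list. Cd38, named after its value was seen, was at 1.20 (95% interval -0.34 to 2.74; limma adjusted p = 0.499), with 29.1 ± 24.6 and 48.7 ± 30.6 normalized counts (SD, n = 7 each). Enpp2 was at 2.54 (95% interval -0.41 to 5.49; limma adjusted p = 0.457). Its mean was nevertheless lower with anti-CD22 (354 ± 308 against 423 ± 725 normalized counts, SD, n = 7 each), since 1 IgG library stood at 1944 and the IgG median was 16.8. Of the 12 adenosine uptake and metabolism genes tested, 4 had a log2 fold change above 0 and 8 below. With the trend removed the balance turned, to 7 above and 5 below, and the median went from -0.04 to 0.02. For the lysosomal nucleoside transporter Slc29a3 the log2 fold change was 0.16 (limma adjusted p = 0.409), and 0.09 with the trend removed.

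Among 6 tested genes of ATP release, 3 were above and 3 below 0 (2 and 4 with the trend removed). Panx1, the channel through which cells release ATP, had 636 ± 88.2 normalized counts with IgG and 507 ± 77.1 with anti-CD22 (SD, n = 7 each). Its log2 fold change was -0.33 (95% interval -0.57 to -0.08; limma adjusted p = 0.293), and Calhm2, another ATP-permeable channel, stood at 0.18 (limma adjusted p = 0.349). Of 24 G proteins, channels and effectors, 12 had a log2 fold change above 0 and 12 below (9 and 15 with the trend removed). An unadjusted p under 0.05 was found for 6 of the 24 (against 12.8% of all genes tested), 5 of them below 0 and 1 above. The 5, of which Gnas, Arrb2 and Gng5 are named after their values were seen, were Adrbk1 (-0.21) and Arrb2 (-0.21), a kinase and an arrestin that switch receptors off, and the G protein subunits Gna15 (-0.18), Gnas (-0.16) and Gng5 (-0.21), with limma adjusted p between 0.289 and 0.383. With the trend removed Gna15 was at -0.06 and Arrb2 at -0.11. The 1 above 0, Pik3cg, the lipid kinase activated by G protein subunits, was at 8510 ± 378 and 10530 ± 1931 normalized counts (SD, n = 7 each), with a log2 fold change of 0.29 (95% interval 0.09 to 0.48; limma adjusted p = 0.250). With the trend removed it was 0.16 (limma adjusted p = 0.489). Of the alternatives run, it passed the threshold only when anti-CD22 replicate 7 was left out (0.37, limma adjusted p = 0.0455). Of the 8 genes of the P2X7 inflammasome route, 2 had a log2 fold change above 0 and 6 below. The median difference was -0.11 on the log2 scale, and none was under an unadjusted p of 0.05.

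**Figure D5:**
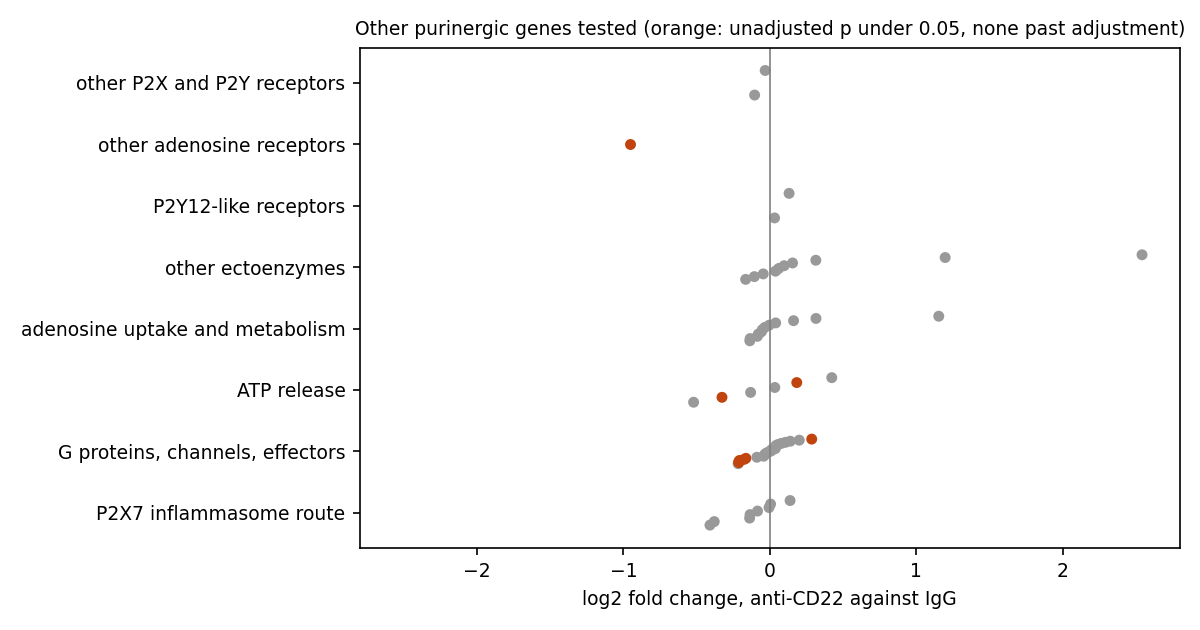
Log2 fold change (anti-CD22 against IgG) of the 65 tested genes in the 8 lists of other purinergic genes, 1 point per gene. The 9 orange points had an unadjusted p under 0.05 and none passed adjustment.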

How the data were processed

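The authors deposited normalized counts per gene, treated here as a signal. Per the submitters' processing notes and the labels' protocols, bcl2fastq split the reads by library, STAR aligned them to mm10, SummarizedExperiment gave the counts and DESeq2 was run on them. The values are whole reads divided by 1 number per library. Tool versions and the gene annotation: not given in the sources used here. SmartSeq v4 and Nextera XT libraries were read as paired ends of 100 bases. Of 24421 entries, 27 with names turned into dates (at most 0.149% of a library) were left out, and 0 columns were unmapped.

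The members and the gene lists were chosen with earlier results of these data known. The test was limma 3.58.1 (R 4.3.3) on log2(normalized count + 1) with a mean-variance trend, for 11646 genes with a mean of at least 10, two-sided, Benjamini-Hochberg over all genes tested, threshold 0.05. It was also run on simulated data, as a check of the code only. Those data had the same dispersion for every gene and no trend in length or GC. Whole reads, as multiples of 1 step per library within 0.1 reads (100% of values), were recovered for 13 libraries and not claimed for anti-CD22 replicate 3, whose step is close to 1. These went to edgeR 4.0.16 and DESeq2 1.42.0 as alternatives, and DESeq2 gave no adjusted p for 3839 genes. Other alternatives were pseudocounts, filters, scalings, variance models, a replicate block and leaving out each library. The length and GC trend was removed per library with natural splines, using GENCODE vM21 (GRCm38, the assembly of mm10), which also gave coordinates and 99.4% of the tested genes' lengths. Promoters are RefSeq's, with an entry for 8 of 10 members. Correlations used 100000 permutations. Tables were handled with Python 3.11.15, pandas 2.3.3 and matplotlib 3.10.9. Intervals on reads cover counting error only, and reads are not independent molecules. Named genes are all members, the list genes past the threshold, with the smallest p or at 0, the members' neighbours in the annotation, and the 3 genes most alike to each of the 3 most abundant members. Some of these are counted in the text and not named.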

Additional observations from a re-analysis of the deposited data

Results flagged for a closer look

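A P2ry14 value and an Nt5e value stood far from the others of their group. P2ry14 in IgG replicate 2 was at 37.8 normalized counts, with a gap to the next library of 0.722 of the group's range. Nt5e in anti-CD22 replicate 2 was at 2.65, the only anti-CD22 library above 0, with a gap of 1.0 of the range. Both gaps are above Dixon's 95% critical value for 7 libraries, which assumes normally distributed values. Counts mostly at 0 do not meet this, so the flag gives no rate expected by chance. A single library above 0 gives a gap of 1.0 whatever its value. Both genes lie under the filter on low values. Neither library was left out of a test because of this.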

How the results depend on the processing

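All 30 alternatives of each of the 7 members, 210 values in all, kept the direction and the side of the threshold of the reported value. In none of them was a member called. The filters, the fit without a mean-variance trend, the replicate block and the permutation test leave the log2 fold change unchanged by design. Those settings could alter the p-value only. The smallest adjusted p over the 210 values was 0.118, for P2ry6 in limma without anti-CD22 replicate 7. With each library left out in turn, log2 fold changes ran from 0.08 to 0.14 for P2ry12, 0.10 to 0.15 for P2ry13, -0.23 to -0.16 for P2ry6, -0.07 to -0.01 for P2rx4, 0.09 to 0.14 for P2rx7, -0.12 to -0.06 for Adora3 and 0.05 to 0.12 for Entpd1. The number of genes called, 1 in the main test, was 0 without a mean-variance trend and 0 with the length and GC trend removed. It was also 0 without anti-CD22 replicates 1 to 3, and 0 with edgeR, where 1027 had an unadjusted p under 0.05. The exact permutation test called 0 as well, but its 3432 assignments made a call unlikely from the start. The number called was 8 with array weights, 4 at an adjusted p of 0.10 and 32 with DESeq2. It ran from 0 to 43 with each library left out, and the cause was not tested. Calls among other purinergic genes ran from 0 to 1 with each library left out, the 1 being Pik3cg without anti-CD22 replicate 7.

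Same-numbered libraries correlated between -0.145 and 0.160, and 2 of 7 correlated best with their own number, so the numbers were taken to share only a label. With a replicate block 2 genes and 0 members were called. The correlation of P2rx4 and P2rx7 turned from -0.267 to 0.234 with the length and GC trend removed, and its cause was not tested. Members under the filter rest on at most 78 reads in a group.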

Other observations

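Beside Adora3 on chromosome 3 lies I830077J02Rik, 15.431 kb away on the opposite strand. It had 1530 ± 102 normalized counts with IgG and 1886 ± 133 with anti-CD22 (SD, n = 7 each). The groups did not overlap, as in 0.258% of all genes tested. The log2 fold change was 0.30 and the limma adjusted p 0.163. Near Nt5e, Snx14 had a log2 fold change of 0.21 (limma adjusted p = 0.241), with Nt5e itself lower in mean. Near Entpd1, Tctn3 had -0.27 (limma adjusted p = 0.372), with Entpd1 itself higher in mean. The neighbours given in this section had an unadjusted limma p under 0.05, as had 12.8% of all genes tested. The tested neighbours Igsf10, Camkk2, Ift81, Rap1a, Specc1l and Gucd1 did not.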
